A study of Rattus norvegicus with 96 samples.

Results

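A set of 9 lysosomal genes was followed in rat blood after inhalation of crystalline silica: the cathepsins Ctsb, Ctsc, Ctsd, Ctss and Ctsz and the membrane proteins Lamp1, Lamp2, Cd63 and Cd68. They were found by gene symbol, or by the current symbol of their Entrez gene ID, and 8 of the 9 had a probe. Ctsz was not matched and was not analysed here. Each of the 8 was represented by 1 probe, passed the filter on low values, and was detected on 96 of 96 arrays, among 12306 genes tested.

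Male CDF Fisher 344 rats, aged 3 months, breathed air or crystalline silica for 6 hours a day on 5 days. Rats given 15 mg/m3 and their air controls were killed 0, 1, 2, 4, 8 or 16 weeks later. Rats given 1 or 2 mg/m3 and their own air controls were killed 16 hours after the last exposure and are called week 0 here. Each of the 8 silica groups held 8 rats and each of the 8 air groups held 4, with 1 Illumina BeadChip array of globin-depleted blood RNA per rat, 96 in all. Arrays detected 7642 to 9970 of 21792 probe rows, with a median of 9237.5, and the number of rats per group limits the precision. No pair of arrays was identical. Of 91 measured marker genes of blood cell types, 65 were detected on every array, and every type had at least 4 such markers.

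Cathepsins are the proteases of the lysosome. Ctsb, Ctss and Ctsz are cysteine proteases, Ctsd is an aspartic protease, and Ctsc, also called dipeptidyl peptidase 1, trims the inactive forms of neutrophil elastase, cathepsin G and the granzymes into active enzymes. Lamp1 and Lamp2 form much of the sugar-coated lining of the lysosomal membrane, Cd63 is a tetraspanin of late endosomes and of platelet and basophil granules, and Cd68 is a heavily glycosylated protein of macrophage and monocyte lysosomes. Swallowed silica crystals are known to damage the lysosomal membrane of macrophages and to release cathepsins such as Ctsb into the cytosol, where they take part in inflammasome activation.

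Many lysosomal genes carry the CLEAR element, a binding site of the transcription factor TFEB whose core is the palindrome CACGTG. RefSeq promoter windows on GRCr8, from 250 bases before to 50 after the table's start site, were at hand for 8 of the 9 genes, with none for Ctsb. CACGTG occurred in 3 of these 8, and in 1826 of all 27457 promoters (6.65%). The longer form TCACGTGA, which contains CACGTG, occurred in 2 of the 8 and in 238 of all promoters (0.867%). Both motifs read the same on either strand. The windows of the 3 matching genes are printed because they carry the motif, and that of Ctsc because it was the only gene of the set called between silica and air rats. The capitals mark CACGTG.
Lamp1, chr16:83075014-83075313, minus strand: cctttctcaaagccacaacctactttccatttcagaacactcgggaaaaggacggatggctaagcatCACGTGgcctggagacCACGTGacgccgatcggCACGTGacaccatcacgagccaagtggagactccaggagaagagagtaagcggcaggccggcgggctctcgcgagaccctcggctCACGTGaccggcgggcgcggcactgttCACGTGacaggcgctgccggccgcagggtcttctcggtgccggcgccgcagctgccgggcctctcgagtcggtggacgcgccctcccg
Ctsd, chr1:206968772-206969071, minus strand: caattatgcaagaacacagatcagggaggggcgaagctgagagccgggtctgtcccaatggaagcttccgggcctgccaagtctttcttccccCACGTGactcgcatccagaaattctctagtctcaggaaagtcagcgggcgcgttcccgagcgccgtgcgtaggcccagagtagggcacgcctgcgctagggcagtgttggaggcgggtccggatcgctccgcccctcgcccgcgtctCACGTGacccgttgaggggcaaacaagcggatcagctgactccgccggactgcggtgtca
Cd63, chr7:1921894-1922193, plus strand: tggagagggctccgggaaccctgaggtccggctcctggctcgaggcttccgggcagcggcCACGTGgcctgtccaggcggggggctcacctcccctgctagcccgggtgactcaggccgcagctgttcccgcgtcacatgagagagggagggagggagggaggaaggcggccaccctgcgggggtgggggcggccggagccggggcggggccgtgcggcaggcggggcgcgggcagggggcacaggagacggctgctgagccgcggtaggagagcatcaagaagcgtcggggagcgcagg
Ctsc, chr1:151440799-151441098, plus strand: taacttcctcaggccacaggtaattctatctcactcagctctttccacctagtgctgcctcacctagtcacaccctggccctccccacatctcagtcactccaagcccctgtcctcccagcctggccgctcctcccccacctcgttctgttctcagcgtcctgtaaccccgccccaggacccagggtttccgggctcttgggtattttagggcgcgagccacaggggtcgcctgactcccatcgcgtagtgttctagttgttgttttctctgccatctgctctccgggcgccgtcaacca
Lamp1 held 5 copies, beginning 183, 167, 150, 65 and 38 bases before the start site, and the copies at 65 and 38 lay within TCACGTGA. Ctsd held 2 copies, at 157 and 10 bases, the nearer one within TCACGTGA. Cd63 held 1 copy, at 190 bases. The windows of Lamp1 and Cd63 lie inside the annotated span of the gene, so they belong to one of several possible starts. Most of the Ctsc window also lies inside its gene, whose annotated span begins at 151440860. Among 96 promoters of the other lysosomal genes and the cathepsin inhibitors listed below, 18 held CACGTG (18.8%) and 9 held TCACGTGA (9.38%). A match in these letters is a description and not a binding site, and the Lamp1, Ctsd and Cd63 values are given side by side below without further use of it.

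All values are background-corrected, quantile-normalized log2 intensities, so 1 unit is a doubling, and levels of different probes are not compared. Ctsb lay near the top of the intensity scale of every array, where quantile normalization left 32 distinct values over 96 arrays. Its group means ran from 14.55 to 14.74 and its pooled within-group SD was 0.07. Cd68 was the most variable, with single rats from 8.13 to 10.24 and a pooled SD of 0.32. The SDs of the other 6 genes lay between 0.13 for Ctsc and 0.21 for Ctss. When the 16 group means of a gene were put in order, none of the 15 gaps between neighbours exceeded the larger of the neighbours' SDs, in any of the 8 genes. An SD is the spread of single rats, and gaps among 16 ordered means are small, so groups may still differ.

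The first question was whether silica changed these genes in blood. Ctsc was higher in silica rats at 16 weeks after 15 mg/m3, and no other gene of the set passed the test there or at any other week or dose. In the 4 air rats of week 16 Ctsc stood at 8.28, 8.15, 8.14 and 8.01, and in the 8 silica rats at 8.27 (lowest), 8.51 (median) and 8.81 (highest). Thus 7 of the 8 silica rats lay above every air rat, 8 of 8 lay above the air mean, and the groups overlapped by a single silica rat. The means were 8.14 ± 0.11 (SD, n = 4) in air and 8.54 ± 0.20 (SD, n = 8) in silica rats, a log2 difference of 0.40 ± 0.08 (SE), or 1.32-fold with a 95% interval of 1.18 to 1.47. The week-16 air mean was the lowest Ctsc mean of the 16 groups. The week-16 silica mean lay just below that of silica rats at week 0 (8.56) and near those after 1 and 2 mg/m3 (8.53 in both). For the week-16 difference limma gave an adjusted p of 0.000856 over all 12306 genes. In the same comparison 4.78% of all genes were called, 379 higher and 209 lower. The call was lost when only the 12 arrays compared entered the fit (adjusted p = 0.0920), and with replicate number as a block (0.35, adjusted p = 0.0651). The block compares only rats that share a number, so silica rats whose number no air rat carried added nothing to that difference.

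At the earlier times the Ctsc difference was smaller and did not pass. At week 4 the air rats stood at 8.00, 8.24, 8.31 and 8.16, below all 8 silica rats, which ran from 8.33 over a median of 8.42 to 8.49, in a week when 0.122% of all genes were called. The share of all genes without overlap is not given, so how unusual this separation is cannot be said. The log2 difference was 0.24 ± 0.08 (SE), with an adjusted p of 0.207, and 0.18 without the air rat of lowest value, whose array was also the one with the fewest detected rows. At week 8 the difference was 0.19 (adjusted p = 0.400), at week 0 it was 0.16 (adjusted p = 0.545), at week 1 it was 0.11 (adjusted p = 0.664), and at week 2 it was -0.02 (adjusted p = 0.959). After 1 mg/m3 it was 0.23 and after 2 mg/m3 it was 0.18, with adjusted p of 1.00 in both. The silica mean was therefore above the air mean in 7 of the 8 comparisons. The change in the Ctsc difference across the 6 weeks did not pass (adjusted p = 0.323), nor did week 16 against week 0 (0.23 ± 0.11 SE, adjusted p = 0.787), so week 16 is not shown to differ from the other weeks.

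**Figure D1:**
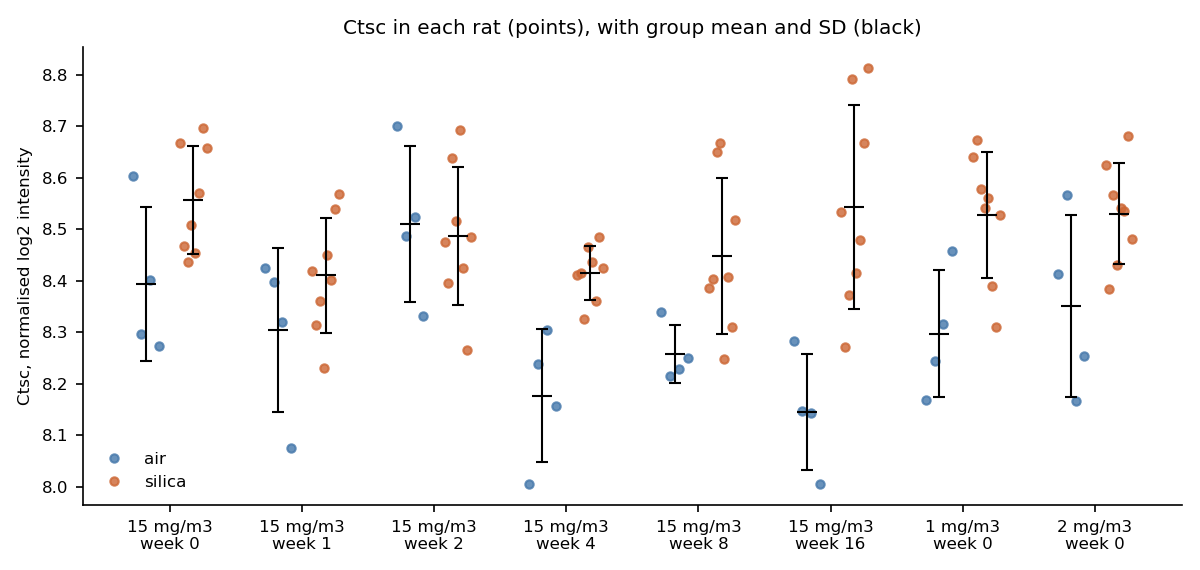
Ctsc in every rat. The vertical axis is the normalised log2 intensity, points are rats (blue air, orange silica) in each dose and week, and black bars are the group mean and SD. At week 16 the air rats sit between 8.01 and 8.28 and the silica rats between 8.27 and 8.81.

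Neutrophil genes were also higher in silica rats at week 16. Of 20 measured neutrophil markers 10 were higher and 0 lower, led by Mmp8, a collagenase of neutrophil granules, at a log2 difference of 1.10 (adjusted p = 1.89e-07), the gelatinase Mmp9 (0.81, adjusted p = 1.54e-05) and the decoy receptor Il1r2 (0.70, adjusted p = 0.000267). Of these 10, the receptor Fpr1 and the elastase Elane were detected on none of the 4 air arrays. The mean of the list lay at 7.47 to 7.87 in air and 8.01 to 8.52 in silica rats, without overlap. Cxcr1 and Elane were its rarest members, detected on 7 and 8 of 96 arrays. Detected rows averaged 8798 in air and 9165 in silica rats. Of the zymogens that Ctsc activates, neutrophil elastase (Elane) was detected on 5 of the 8 silica arrays and on 3 of the other 88 arrays, so it passed the filter through this group. Elane is nevertheless 1 of the 10 markers counted as higher and enters the list mean, so both include a gene admitted by its high values here. Its own difference is not used. Granzymes A and B did not pass, at -0.05 and -0.09 (adjusted p = 0.932 and 0.885). These 3 genes were chosen after their values were seen.

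Markers of other cell types were also looked at for week 16. The B-cell list mean was lower in silica rats, at 6.31 to 6.75 against 6.56 to 6.84 in air rats, with 1 of 8 above the air mean and none of its 8 genes called (1 at an unadjusted p under 0.05). The NK-cell receptor gene Klrb1b was higher (0.74, adjusted p = 0.000373), and the monocyte gene Ly86 (-0.31, adjusted p = 0.0186) and the T-cell kinase gene Zap70 (-0.28, adjusted p = 0.0403) were lower. Each was the only called gene of its list. In these lists 5 of 10 NK-cell, 5 of 11 monocyte and 3 of 13 T-cell genes had a difference above 0. The list medians were -0.03, -0.01 and -0.13, so Klrb1b and Ly86 do not stand for their lists. No platelet, erythroid or eosinophil and basophil marker was called (1, 2 and 2 at an unadjusted p under 0.05), with Gp9 at -0.38, Klf1 at -0.33 and Siglec5 at 0.38 (adjusted p = 0.239, 0.126 and 0.134). In the same order, 1 of 8, 6 of 11 and 5 of 10 genes of these lists had a difference above 0. Within groups over 96 arrays, Ctsc followed the B-cell list (r = 0.44, adjusted permutation p = 0.00117) and not the neutrophil list by the test (r = 0.20, adjusted permutation p = 0.227). With the column run (12 neighbouring arrays of the table) removed as well, r was 0.37 and 0.26. Whether these relations differ was not tested. The part of these lists and of detected rows in the Ctsc difference was not tested, and in whole-blood RNA fewer cells of a type and less RNA per cell cannot be told apart. In each of the 4 column runs that held both groups, the silica rat stood above the air rat, by 0.20 to 0.52. The other silica rats of week 16 lay in column runs 5 to 8, which held no air rat of the 15 mg/m3 set.

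The other cathepsins showed no called difference. In limma, 0 of the 8 genes was called at week 0 (0.0163% of all genes called), week 1 (0.39%), week 2 (0.0325%), week 4 (0.122%) and week 8 (0.268%), with 3, 1, 1, 1 and 2 genes at an unadjusted p under 0.05. Of all 12306 genes, 1117, 1378, 1119, 1155 and 1137 reached that unadjusted p in the same weeks. After 1 mg/m3 and after 2 mg/m3 0% of all genes was called, and 2 genes of the set reached an unadjusted p under 0.05 in each, against 313 and 580 of all genes. The median log2 difference over the 8 genes lay between 0.02 and 0.12, and that over all genes within 0.01 of 0. Ctsd, the aspartic protease, was lower in silica rats at week 0. Its 4 air rats stood at 11.89, 11.91, 11.72 and 12.11, and its 8 silica rats ran from 11.32 over a median of 11.69 to 11.85, so all 8 lay below the air mean but only 5 below every air rat. The log2 difference was -0.25 ± 0.11 (SE) and did not pass (adjusted p = 0.444). At week 16 the same gene differed by 0.08, and the 2 differences did not differ by the test (0.33 ± 0.15 SE, adjusted p = 0.787). Erythroid marker means, which Ctsd followed, were 11.24 in air and 11.14 in silica rats at week 0, and their part in the difference was not tested.

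Ctsb, the cathepsin best known from silica-treated macrophages, had no called difference. Its probe is near the top of the scale, and its values spanned 0.37 log2 units after quantile normalization. As raw intensity they spanned 16993 to 38273, but the raw medians of the arrays also ran from 61.5 to 137. The raw span thus includes differences in array brightness, which normalization removes from every probe. Its small differences and narrow intervals cannot be told apart from an effect of quantile normalization at the top of the scale. The differences ran from -0.10 after 1 mg/m3 (95% interval -0.20 to 0.00, adjusted p = 1.00) to 0.08 at week 8 (-0.02 to 0.18, adjusted p = 0.630) and its 8 intervals lay between 0.868-fold and 1.14-fold. Ctss, an elastin-cleaving cathepsin of antigen-presenting cells, ranged from -0.09 at week 16 to 0.22 after 1 mg/m3 (adjusted p = 0.794 and 1.00).

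Of the membrane proteins, Lamp2 was above the air mean in all 8 comparisons, without a call in any. At week 8 its air rats stood at 9.19, 9.15, 9.12 and 9.15, and its silica rats ran from 9.22 over a median of 9.31 to 9.54, without overlap. Here too the share of all genes without overlap is not given, so the separation only describes these rats. The log2 difference was 0.20 ± 0.10 (SE), with an adjusted p of 0.531. After 2 mg/m3 the air rats stood at 9.49, 9.24, 9.28 and 8.60 and the silica rats ran from 9.35 over 9.44 to 9.66, so the groups overlapped and 1 air rat was far below the rest. That difference was 0.30 ± 0.10 (SE, adjusted p = 0.829), and 0.12 without that rat. The same air group held the lowest platelet marker mean, 9.56, with its highest at 11.17 and the silica rats between 10.73 and 11.03, and the part of platelets was not tested.

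Lamp1 was below the air mean in 7 of the 8 comparisons and above it at week 2 (0.08), without a call in any. At week 1 its air rats stood at 10.20, 10.23, 10.26 and 10.35 and its silica rats ran from 9.84 over 10.08 to 10.27, with 7 of 8 below every air rat. The log2 difference was -0.22 ± 0.10 (SE, adjusted p = 0.404), and at week 16 it was -0.21 (adjusted p = 0.258). The largest Cd63 difference was at week 0. Its air rats stood at 6.12, 6.55, 6.17 and 6.56 and its silica rats ran from 6.12 over 6.68 to 7.02, so the groups overlapped, with 6 of 8 silica rats above every air rat and 1 below. The difference was 0.31 ± 0.11 (SE, adjusted p = 0.361). Across the other 13 processing settings it ranged from 0.06 to 0.38.

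Cd68, the monocyte and macrophage protein, was highest over air at week 2. Its air rats stood at 9.32, 8.79, 8.91 and 9.26, and its silica rats ran from 9.24 over 9.45 to 10.03, with 6 of 8 above every air rat. The log2 difference was 0.47 ± 0.19 (SE), or 1.39-fold, with an adjusted p of 0.388. The monocyte marker mean, in which Cd68 is not included, was 6.70 in air and 6.78 in silica rats of that week. By week 16 the Cd68 difference was -0.07 (adjusted p = 0.890). The silica effect changed over the 6 weeks for 0 of the 8 genes in limma's F test (0.146% of all genes), with Ctsc alone at an unadjusted p under 0.05. Week 16 against week 0 called 0 genes of the set (0% of all genes), with 2 at an unadjusted p under 0.05, and the 3 doses at week 0 called 0 (0% of all genes), with 0 at an unadjusted p under 0.05. The share of all genes at that unadjusted p is not given for these tests across weeks and doses.

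**Figure D2:**
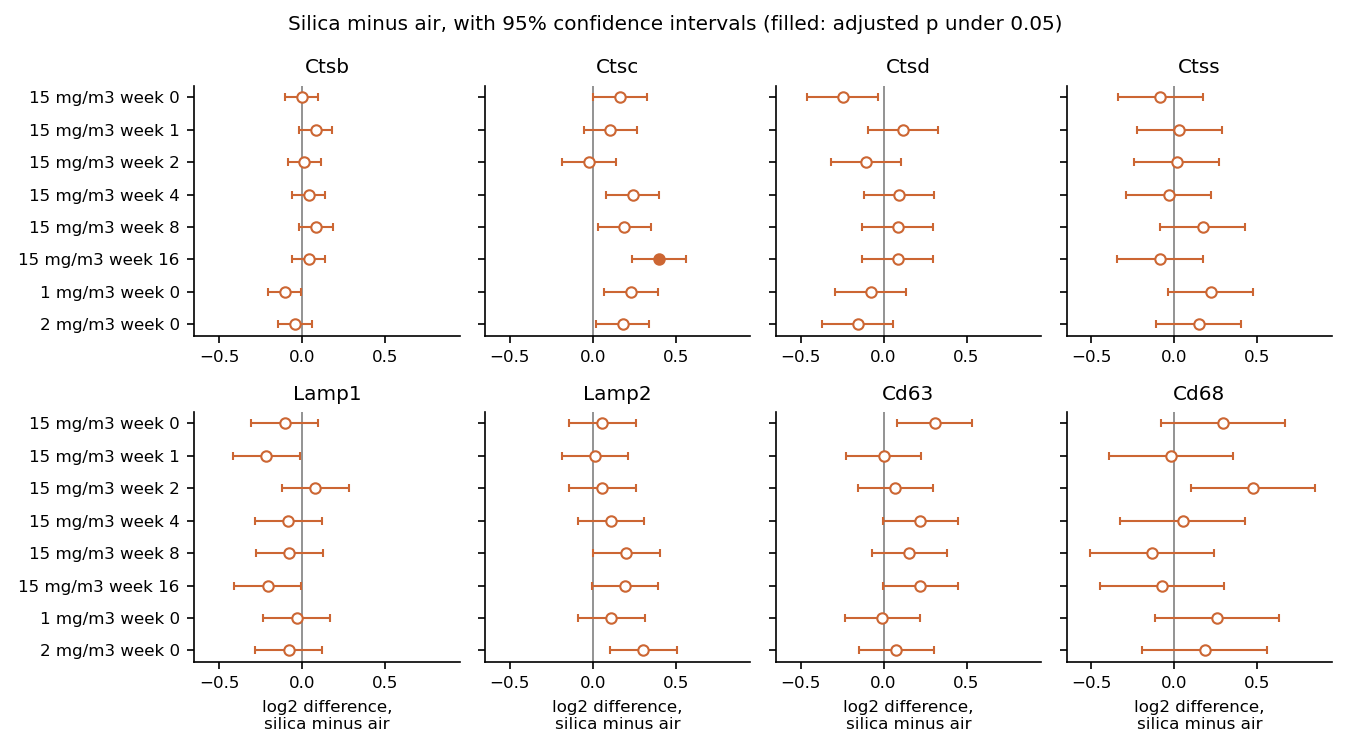
Silica minus air for each gene. The horizontal axis is the log2 difference with its 95% confidence interval, and each row is a dose and week. The only filled point, for an adjusted p under 0.05, is Ctsc at week 16 (0.40), and the intervals of Cd68 are the widest.

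The second question was how the levels moved over the 16 weeks of the 15 mg/m3 set, in air and in silica rats alike. In air rats 5 of 8 genes changed over the weeks, where 31% of all genes did, and in silica rats 6 of 8 changed, where 45.9% of all genes did. Week, age of the rat and day of sampling cannot be told apart here, and the silica arm held more rats.

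Ctsd rose in both arms (adjusted p = 5.56e-05 in air, 7.85e-14 in silica). Its air means were 11.91 at week 0, 11.63 at week 1, 11.99 at week 2, 12.28 at week 4, 12.19 at week 8 and 12.24 at week 16. In silica rats they were 11.66, 11.75, 11.89, 12.38, 12.28 and 12.32. The lowest rats of weeks 4, 8 and 16 stood at 12.21, 12.07 and 12.13 in air and at 12.14, 11.92 and 12.07 in silica rats. The highest week-0 rats stood at 12.11 in air and 11.85 in silica rats. The silica arm thus did not overlap between week 0 and these weeks, and the air arm overlapped at week 8. The share of all genes without overlap between these weeks is not given, so the separation only describes these rats. From lowest to highest mean the span was 1.57-fold in air and 1.64-fold in silica rats. The erythroid marker means moved with it, from 11.24 at week 0 to 11.54 at week 4 in air and from 11.14 to 11.52 in silica rats, and their part in the change was not tested.

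Ctss and Lamp2 were highest at week 0. Ctss averaged 11.09 ± 0.32 (SD, n = 4) in air and 11.01 ± 0.32 (SD, n = 8) in silica rats at week 0, and between 10.46 and 10.85 in all later groups (adjusted p = 0.0109 in air, 2.66e-05 in silica). Lamp2 fell from 9.60 to 9.06 at week 4 in air and from 9.66 to 9.17 in silica rats (adjusted p = 0.000710 and 2.20e-05), and stood at 9.22 and 9.41 at week 16. Platelet marker means were 10.83 at week 0 and 10.44 at week 4 in air, 10.86 and 10.67 in silica rats, and 10.84 and 10.71 at week 16, and their part in the change was not tested. Lamp1 had its lowest means in weeks 1 to 4, between 10.04 and 10.28 in both arms, and 10.35 to 10.55 at weeks 0, 8 and 16 (adjusted p = 0.00627 in air, 1.63e-05 in silica). Ctsc changed over the weeks in air rats, from 8.51 at week 2 to 8.14 at week 16 (adjusted p = 0.00808), while silica means stayed between 8.41 and 8.56 (adjusted p = 0.198). Cd68 and Cd63 passed in silica rats (adjusted p = 0.000421 and 0.0108) and not in air rats (0.606 and 0.406). Whether the arms differed in these changes is the test over 6 weeks given above, which none passed. Ctsb passed in neither arm.

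**Figure D3:**
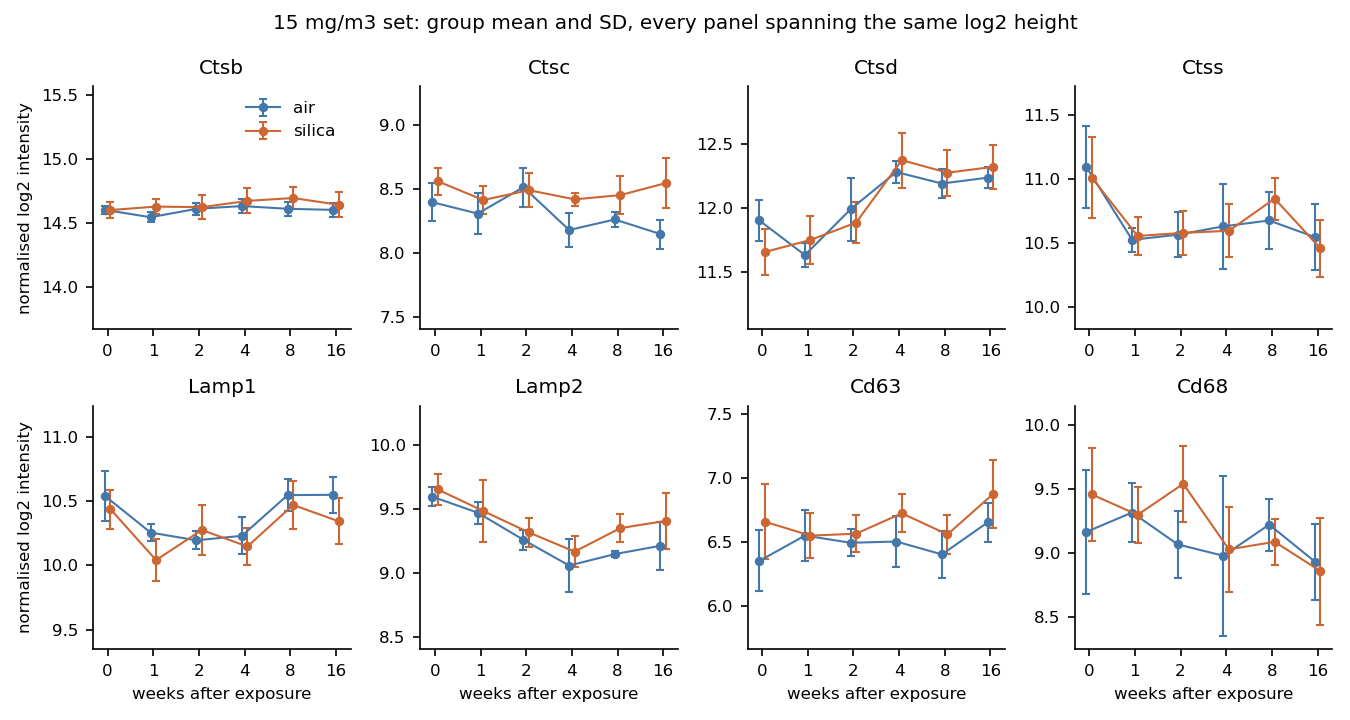
Levels over time in the 15 mg/m3 set. The vertical axes are normalised log2 intensities of equal height, the horizontal axis is weeks after exposure, and points and bars are group means and SDs of 4 air (blue) and 8 silica (orange) rats. Ctsd rises from about week 2 in both arms, and Ctss and Lamp2 are highest at week 0.

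Air rats of the 3 exposure sets, all killed at week 0, gave a measure of how far controls differ. Those of the 15 mg/m3 set lay in column runs 1 to 4, and those of the other 2 sets in runs 5 to 8. Exposure set and column run therefore cannot be told apart among these air rats. Ctss and Lamp2 differed among these air rats, 2 of 8 genes, where 11.7% of all genes did. Ctss stood at 11.15, 10.63, 11.39 and 11.20 in air rats of the 15 mg/m3 set, at 10.45, 10.53, 10.52 and 10.34 in those of the 1 mg/m3 set, and at 10.45, 10.92, 10.58 and 10.46 in those of the 2 mg/m3 set (adjusted p = 0.00330). The first set was highest, and its lowest rat overlapped the third set. Lamp2 averaged 9.60, 9.42 and 9.15 in the same order (adjusted p = 0.0145). Only 1 gene was called without rat 3 of the 15 mg/m3 air group, and also without rat 4 of the 2 mg/m3 air group. The Ctss means were 11.09, 10.46 and 10.60, so among air rats the high week-0 level was seen in the 15 mg/m3 set, whose arrays lay in other column runs. Silica rats of the 15 mg/m3 set at week 0 that lay in runs 5 to 8 stood at 11.01, 11.61, 10.72 and 11.28. Silica rats of the 1 and 2 mg/m3 sets, in the same runs, ran from 10.36 to 10.88 and from 10.38 to 10.94. The part of the column run was not tested.

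Of 94 other lysosomal genes in 5 lists, 6 were called at week 16 (6.38%), near the 4.78% of all genes, and 25 had an unadjusted p under 0.05 (26.6%, against 18.3% of all genes). Of 11 other cathepsins and proteases 0 were higher and 1 lower, the lysosomal dipeptidase Dpp7 (-0.23, adjusted p = 0.0343). Of 30 hydrolases 2 were higher, the beta-mannosidase Manba (0.36, adjusted p = 0.0282) and the acid ceramidase Asah1 (0.41, adjusted p = 0.0304), and 1 was lower, the acid DNase Dnase2 (-0.35, adjusted p = 0.0301). None of 21 other membrane proteins was called (3 at an unadjusted p under 0.05), with Scarb2, the receptor that carries glucocerebrosidase, at 0.24 (adjusted p = 0.116). Of 14 subunits of the proton pump 2 were higher, Atp6v1c1 (0.35, adjusted p = 0.00572) and Atp6v1g1 (0.26, adjusted p = 0.0424). None of 18 sorting receptors and regulators was called (5 at an unadjusted p under 0.05), with the TFEB relative Tfe3 at 0.36 (adjusted p = 0.0554). The median log2 differences of these 5 lists lay between -0.05 and 0.05.

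Among the 6 lists besides the set and the cell markers, cathepsin inhibitors had the highest median log2 difference at week 16, 0.12. That of the 8 genes of the set was 0.06. Of 7 measured, 3 were higher at week 16 and 0 lower: the stefins Stfa2l2 (0.67, adjusted p = 0.00438) and Stfa2 (0.66, adjusted p = 0.00681), which block cysteine cathepsins, and Serpinb1a (0.55, adjusted p = 0.0497), an inhibitor of neutrophil serine proteases. The same 2 stefins were also called at week 1, at 0.87 and 0.89, and at week 8, at 1.04 and 0.93, with 8 of 8 silica rats above the air mean each time. They belong to a family of close copies in the rodent genome, so a probe of one may also read the other. At those weeks 5 of 20 neutrophil markers each were called higher, among them Il1r2 (0.68 and 0.64), Mmp8 (0.57 and 0.76) and Pglyrp1 (0.63 and 0.76), and their part in the inhibitor difference was not tested.

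Across rats, the 8 genes did not vary as a block. After removing each group's mean, 28 pairs were compared over 96 arrays by permutation within groups with Benjamini-Hochberg adjustment, and 3 passed by Pearson's r. The share of passing pairs among all genes is not given. Lamp2 and Cd68 varied together (r = 0.38, permutation p = 0.000360, adjusted 0.00504; rho = 0.32, permutation p = 0.00384, adjusted 0.0358; r = 0.40 without the 2 most distant arrays). Ctss and Cd63 varied in opposite directions (r = -0.51, rho = -0.47; permutation p = 1e-05 and 5e-05, adjusted 0.000280 and 0.00140; r = -0.44 without 2 arrays), the first p being the smallest that these permutations can give. Ctsd and Lamp2 also did (r = -0.30, rho = -0.32; permutation p = 0.00222 and 0.00331, adjusted 0.0207 and 0.0358; r = -0.30 without 2 arrays). With the column run removed as well, r was 0.35, -0.46 and -0.36.

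Several of the genes followed the markers of a blood cell type. Each of the 8 was set against the mean of 8 marker lists, a comparison chosen after the data were seen. Of the 64 relations, 13 passed for both Pearson's r and Spearman's rho, 10 of them positive. How many of all genes pass with these lists is not given, so the count cannot be read as a trait of the 8 genes. Cd68 followed the monocyte list (r = 0.80, rho = 0.77; permutation p = 1e-05 for both, the smallest possible, adjusted 0.000213 and 0.000320; r = 0.77 without 2 arrays). Lamp2 followed the platelet list (r = 0.58, rho = 0.45; permutation p = 1e-05 and 5e-05, adjusted 0.000213 and 0.000533; r = 0.49 without 2 arrays). Ctsd followed the erythroid list (r = 0.49, rho = 0.53; permutation p = 1e-05 for both, adjusted 0.000213 and 0.000320; r = 0.47 without 2 arrays). Ctss followed the monocyte list (r = 0.46, rho = 0.44; permutation p = 4e-05 for both, adjusted 0.000512 and 0.000533; r = 0.41 without 2 arrays). Ctss followed the NK-cell list as closely (r = 0.45, rho = 0.46; permutation p = 0.000130 and 6e-05, adjusted 0.00119 and 0.000549; r = 0.36 without 2 arrays). Cd68 also followed the NK-cell list (r = 0.54, rho = 0.48; permutation p = 3e-05 for both, adjusted 0.000480 and 0.000533; r = 0.54 without 2 arrays). Ctsc followed the B-cell list (r = 0.44, rho = 0.43; permutation p = 0.000110 and 5e-05, adjusted 0.00117 and 0.000533; r = 0.41 without 2 arrays). With the column run removed as well these 7 values of r were 0.79, 0.53, 0.63, 0.49, 0.44, 0.54 and 0.37. The remaining 6 had an r between -0.43 (Cd68 with the B-cell list) and 0.38 (Lamp2 with the monocyte list). Ctsb passed with none of the 8 lists.

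**Figure D4:**
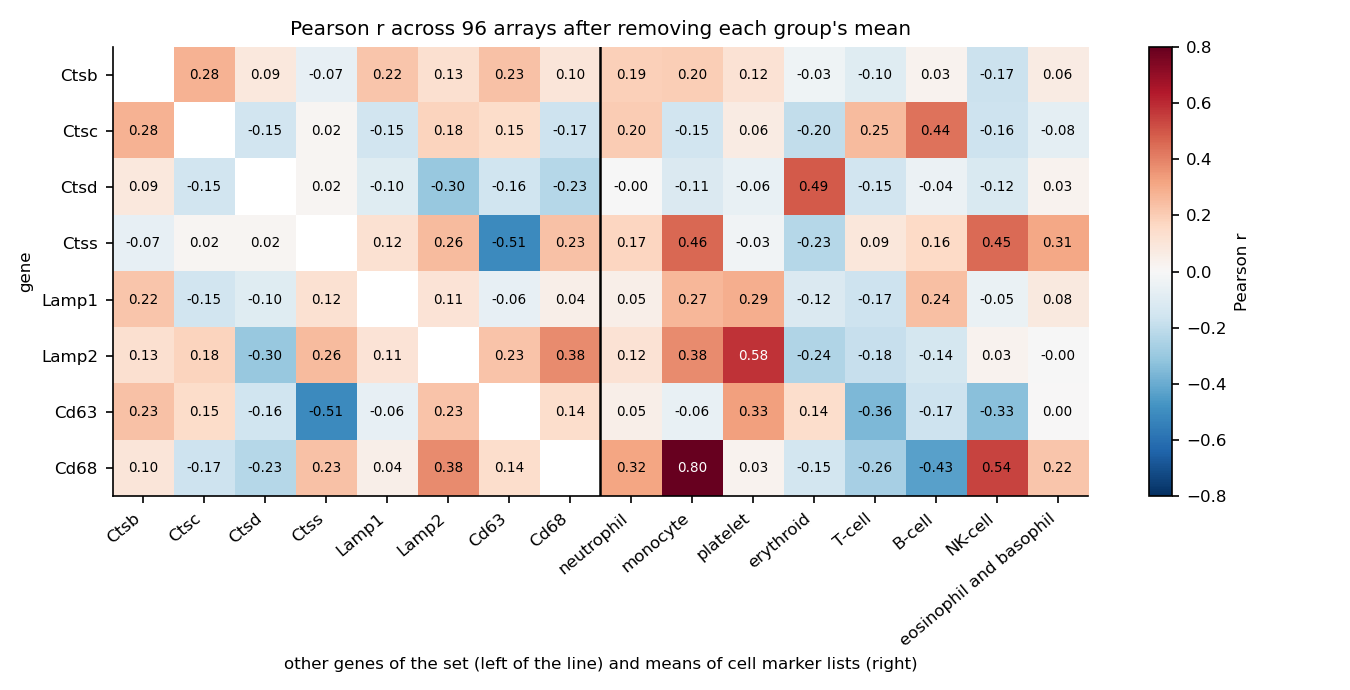
Pearson's r over 96 arrays after removing group means, between the genes (left of the line) and with the means of cell marker lists (right). The strongest cell is Cd68 with the monocyte list (0.80), and the strongest negative one is Ctss with Cd63 (-0.51).

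Genes with the most similar pattern were sought for each gene. Among all genes tested, the closest to Cd68 by within-group r was Clec4a3 (0.80), a lectin receptor of myeloid cells that is also on the monocyte list, and Plek (0.74), the platelet protein pleckstrin, was among the closest 2 to Lamp2. The closest to Ctsc was Stap1 (0.59), a signalling adaptor of B cells, and the closest to Ctsd was Cnppd1 (0.73), followed by Klf3 (0.66), a transcription factor known from erythroid cells. The closest to Ctss was Slc25a6 (0.81), a mitochondrial ADP/ATP carrier, and the closest to Lamp1 was Zbtb7a (0.69), a transcriptional repressor. The closest to Cd63 was Gps2 (0.61), a corepressor subunit, and the closest to Ctsb was Itgb7 (0.44), an integrin chain of lymphocytes. The second closest genes were Tifa for Cd68, Nop16 for Ctsc, Cept1 for Ctss, Tmbim6 for Lamp1, Fkbpl for Cd63 and Epb41 for Ctsb, at 0.79, 0.51, 0.79, 0.67, 0.61 and 0.44, and LOC500506 was the closest to Lamp2 (0.76).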

How the data were processed

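Blood RNA of 96 rats in 16 groups was measured on 1 array each. Per the file headers, the non-normalized table that was deposited gives each array an intensity for every probe and a detection p-value. The submitters' processing notes name BeadStudio, limma and lumi, with no version or role. The deposited series table holds log2 values normalized by the authors, used as an alternative, and 192 per-sample columns were not used.

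Intensities were corrected by limma's normexp (as in neqc, offset 16), quantile normalized and taken to log2 in R 4.3.3 with limma 3.58.1. 626 rows off the detection grid were left out of the background estimate, a choice made after the data were seen. Rows were kept where 4 or more arrays had a detection p below 0.05 (12368 of 21792). The row with the highest mean stood for a gene, which left 12306 genes, and symbols came through Entrez IDs for 16866 rows, from the file's symbol for 144, and stayed as in the file for 4782. One limma fit with a mean per group covered all arrays, with moderated t or F tests and Benjamini-Hochberg adjustment over all genes. An adjusted p under 0.05 was called. The fit was tested on simulated data.

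Cell marker and lysosome lists were written from general knowledge, and the genes and lists were chosen with earlier results of these data known. The plan spoke of 9 genes and 36 pairs, and 8 genes and 28 pairs could be measured. Besides the genes of the set, the rule for names took from each list up to 4 called genes per comparison by smallest p, or where none was called the gene with the smallest p at week 16, and for each gene of the set the 2 with the highest within-group r. Not every gene it allows is named. The labels give separate rats and say nothing of chips or days, so runs of 12 table columns were used as a possible batch. All air arrays of the 15 mg/m3 set lay in runs 1 to 4, and its silica arrays in runs 1 to 8. All arrays of the 1 and 2 mg/m3 sets lay in runs 5 to 8. Alternatives changed the background, normalization, filter, arrays fitted, weights, block, covariates and single rats.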

Additional observations from a re-analysis of the deposited data

Results flagged for a closer look

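Single rats stood apart from the rest of their group in 5 of 128 combinations of gene and group, judged by the gap to the nearest rat over the whole range of the group. Chance gives about 1 in 20 groups, or 6.4 here.

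Cd63 was affected in 2 groups. In silica rats of week 16 after 15 mg/m3, rat 3 stood lowest at 6.32, with the others at 6.73 to 7.10. In silica rats after 2 mg/m3, rat 7 stood highest at 6.92, with the others at 6.49 to 6.68. Cd68 stood at 10.24 in silica rat 2 of week 0 after 15 mg/m3, with the others at 9.01 to 9.59. Ctss stood at 10.38 in silica rat 8 after 2 mg/m3, below the others at 10.69 to 10.94. Lamp2 stood at 9.14 in air rat 4 of week 2, with the other 3 at 9.29 to 9.31.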

How the results depend on the processing

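Ctsc at week 16 was the 1 gene of the set called between silica and air, and the count fell to 0 when only the 12 arrays compared were fitted (log2 difference 0.40, adjusted p = 0.0920) and with the replicate block (0.35, adjusted p = 0.0651). It stayed called in the 11 other settings, with differences of 0.28 to 0.40, and in 12 of 12 fits without 1 rat (0.35 to 0.44, counts 1 to 1). All genes called at week 16 numbered 588, but 62 with only these arrays, 169 with the replicate block, 184 with 4 column runs only, and 214 to 714 without 1 rat. In the other comparisons the replicate block called 0 genes of the set wherever it could be fitted. With the block, each difference rests only on silica rats that share a number with an air rat, and thus on fewer silica rats. The labels do not say whether replicate numbers pair rats. Residual correlations of 32 same-numbered pairs ran from -0.32 to 0.27 with a median of -0.02, 6 of them over 0.1, which does not settle it. A block could not be fitted for the changes over weeks or the air sets, nor 4 column runs only for the doses and air sets. For the air rats of the 3 sets the count of 2 fell to 1 with only the groups compared and with array weights, and was 1 to 2 without 1 rat. Of 832 gene differences under other settings, 2 lost the call (both Ctsc) and 0 that were called changed sign. The setting without the 2 arrays of fewest detected rows (under 8000) was added after the data were seen and changed no call. The cause of these shifts was not tested. With a median SE of 0.10 on a log2 difference, small changes are below what 4 air rats can show.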
